A study of Mus musculus with 12 samples.

Results

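The transcripts of 9 genes of the podocyte slit diaphragm were followed in the glomeruli of 12 mice: Nphs1, Kirrel, Cd2ap, Magi2, Tjp1, Trpc6, Fat1, Ptpro and Plce1. They were selected by symbol for their role in this junction, and all 9 were found by symbol among the 14096 genes of the deposited tables. The mice were male eNOS-/- animals (lacking endothelial nitric oxide synthase, labelled as C57BL/6J), so the nondiabetic controls also lacked eNOS. Diabetes was induced at 8 weeks of age by STZ (streptozotocin, a beta-cell toxin) at 50 mg/kg on 5 days, and citrate buffer alone was given to the nondiabetic mice. Gavage began 10 weeks after induction and lasted 8 weeks, with ATG (arctigenin, a plant lignan) at 40 mg/kg/day or with 5% DMSO as vehicle. Each of the 4 resulting groups (vehicle-treated nondiabetic, ATG-treated nondiabetic, vehicle-treated diabetic, ATG-treated diabetic) held 3 mice, aged 26 weeks at the end. Poly(A) RNA of glomeruli isolated with magnetic beads was sequenced. The labels also describe a later digestion to single cells and a sort for a fluorescent reporter, which the RNA extraction step does not mention, and podocyte, endothelial, mesangial and tubule markers were present in every library. Reads of Nos3, the eNOS gene, were present in all 12 mice (log2 10.07 to 11.40), and gene totals cannot show whether they come from outside the disrupted part.

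The slit diaphragm is the cell junction that bridges neighbouring podocyte foot processes and forms the last layer of the filter between blood and urine. Nephrin and NEPH1, the proteins of Nphs1 and Kirrel, reach across the slit from opposite cells, and adaptors beneath the membrane tie them to actin and to polarity and calcium signalling. Inherited loss of several of these genes causes proteinuria, and the question put to the data was whether diabetes or ATG moved their transcripts.

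The members lie on 8 chromosomes, so no shared locus joins them. Nphs1 (Entrez 54631) occupies chr7:30460058-30488609 on the plus strand of mm10 and stands head to head with Kirrel2, a NEPH family gene, with 2542 bases between the pair. Magi2 is the longest, with 797275 bases from chr5:19907518 to chr5:20704792 in the deposited annotation, and a further RefSeq start lies upstream at chr5:19227046. Nphs1 shares 597 exon bases with the antisense gene Nphs1os and Fat1 shares 487 with Gm2366, and the counting is not stated to use strand, so reads of those stretches cannot be assigned to either strand. Nphs1 shares a further 183 with the pseudogene Rps12-ps4, and Magi2 shares 203 with Gm29254 on its own strand, where strand could not part them either.

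The 250 bases before the transcript start that the files use were read for 4 members whose window holds no annotated exon (RefSeq, GRCm38.p6, GENCODE M21 for exons). Trpc6 is shown because its course differed most from that of the others, and Ptpro because its span relative to the podocyte markers was the smallest. Tjp1 is shown because it was called for diabetes under ATG. Magi2 is shown because it was the 1 member called relative to those markers, for diabetes averaged over both treatments. Each is written 5′ to 3′ along the gene, and capitals mark matches to motifs searched on both strands: the GC box GGGCGG, the EGR and WT1 type site GCGNGGGNG and the AT-rich TAATTA bound by LMX1B type factors.
Trpc6 (chr9:8543892-8544141, plus strand): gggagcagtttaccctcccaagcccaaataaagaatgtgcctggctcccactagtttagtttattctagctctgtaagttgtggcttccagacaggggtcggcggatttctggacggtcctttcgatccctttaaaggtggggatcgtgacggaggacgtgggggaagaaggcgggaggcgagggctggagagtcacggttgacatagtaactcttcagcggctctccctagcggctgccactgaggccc
Ptpro (chr6:137252049-137252298, plus strand): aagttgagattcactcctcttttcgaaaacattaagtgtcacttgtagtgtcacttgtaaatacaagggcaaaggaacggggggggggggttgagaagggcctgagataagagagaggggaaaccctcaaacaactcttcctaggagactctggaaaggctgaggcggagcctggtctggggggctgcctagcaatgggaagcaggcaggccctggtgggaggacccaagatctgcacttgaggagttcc
Tjp1 (chr7:65371245-65371494, minus strand): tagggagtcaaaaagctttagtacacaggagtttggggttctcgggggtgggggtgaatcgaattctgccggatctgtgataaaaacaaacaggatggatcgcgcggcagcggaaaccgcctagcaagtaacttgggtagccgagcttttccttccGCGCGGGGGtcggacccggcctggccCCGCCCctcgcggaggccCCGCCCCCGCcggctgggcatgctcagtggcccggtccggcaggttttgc
Magi2 (chr5:19907268-19907517, plus strand): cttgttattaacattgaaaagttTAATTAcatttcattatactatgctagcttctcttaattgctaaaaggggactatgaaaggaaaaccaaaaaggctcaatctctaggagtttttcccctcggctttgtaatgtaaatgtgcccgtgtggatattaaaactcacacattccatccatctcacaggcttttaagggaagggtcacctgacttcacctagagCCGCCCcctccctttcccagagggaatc
The GC box was found in 32.7% of 32851 RefSeq promoter windows of this length, the GCGNGGGNG site in 10.5% and TAATTA in 4.84%. Tjp1 held 2 GC boxes and 2 GCGNGGGNG matches, of which 1 overlaps a GC box. The Magi2 window shown held 1 GC box and 1 TAATTA. A second Magi2 window (chr5:19226796-19227045), not shown because it holds annotated exon bases, held 1 GCGNGGGNG match. The window of Cd2ap, not shown for the same reason, also held 1. No match lay in the windows of Trpc6 and Ptpro, nor was the FOX type GTAAACA or the MAF type TGCTGAC found in any of the 10 windows listed for the 9 members.

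Values are the authors' log2 normalised read values, in which 1 unit is a doubling, and they are not divided by gene length. They rest on 23.6 to 29.8 M (mega) reads per mouse on the listed genes. Per kilobase of transcript, Nphs1 was the most abundant member in each of the 12 mice, with a mean of 355 reads per kilobase per M reads (range 151 to 557). Ptpro, a receptor phosphatase of the foot process membrane, followed at 97.8 (46.6 to 131) and was above Tjp1 in 10 of 12 mice. Tjp1, which encodes the scaffold ZO-1, had 87.9 (48.3 to 123). Then came Cd2ap at 60.2, the adaptor that links nephrin to actin, and Kirrel at 34.4, each above the next in 12 of 12 mice. Fat1, a giant atypical cadherin of the slit, and Plce1, phospholipase C epsilon, could not be ordered. They had 28.9 and 28.7, and Fat1 was above Plce1 in 7 of 12 mice. Magi2, a PDZ scaffold that binds nephrin, had 13.8. Trpc6, a calcium-permeable channel of the podocyte, was lowest at 1.63 (0.856 to 2.39), which rested on about 65 to 210 reads per mouse. Read sampling alone gives its log2 value an SD of 0.099 to 0.179. The other 8 members had at least 1247 reads in every mouse.

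Diabetes was first compared in vehicle-treated mice, the comparison that asks what diabetes does without drug. The slit diaphragm transcripts did not move detectably. None of the 9 members passed an adjusted p of 0.05 (limma with Benjamini-Hochberg adjustment over 14096 genes), against 18.9% of all genes (2659). None reached an unadjusted p of 0.05, as 35.5% of all genes did. None was called by limma-voom on recovered reads, which called 2710 genes. Log2 differences ran from -0.27 (Magi2) to 0.24 (Nphs1), with 4 of 9 above 0 and a median of -0.01, against 0.01 over all genes.

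Nphs1 measured 15.83, 15.91 and 15.92 in vehicle-treated nondiabetic mice and 16.06, 15.81 and 16.52 in vehicle-treated diabetic mice. Diabetic mouse 3 was the highest of the 12 for Nphs1, diabetic mouse 2 lay below the nondiabetic mice, and the groups overlapped. The log2 difference was 0.24 ± 0.27 (SE, n = 3 mice per group), with a 95% interval of -0.35 to 0.84. Magi2 was tightly grouped in vehicle-treated nondiabetic mice, at 11.58, 11.60 and 11.60, and spread over 11.25, 10.83 and 11.90 in vehicle-treated diabetic mice. Its difference was -0.27 ± 0.28, with an interval of -0.88 to 0.34. The spread between diabetic mice was common to 8 members: all but Trpc6 were highest of the 12 libraries in vehicle-treated diabetic mouse 3. Trpc6 measured 7.85, 7.66 and 7.44 in vehicle-treated nondiabetic mice and 7.39, 7.47 and 7.54 in vehicle-treated diabetic mice, a difference of -0.18 ± 0.18 with overlapping groups. The 95% intervals of the other 6 members lay between -0.72 and 0.69.

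**Figure D1:**
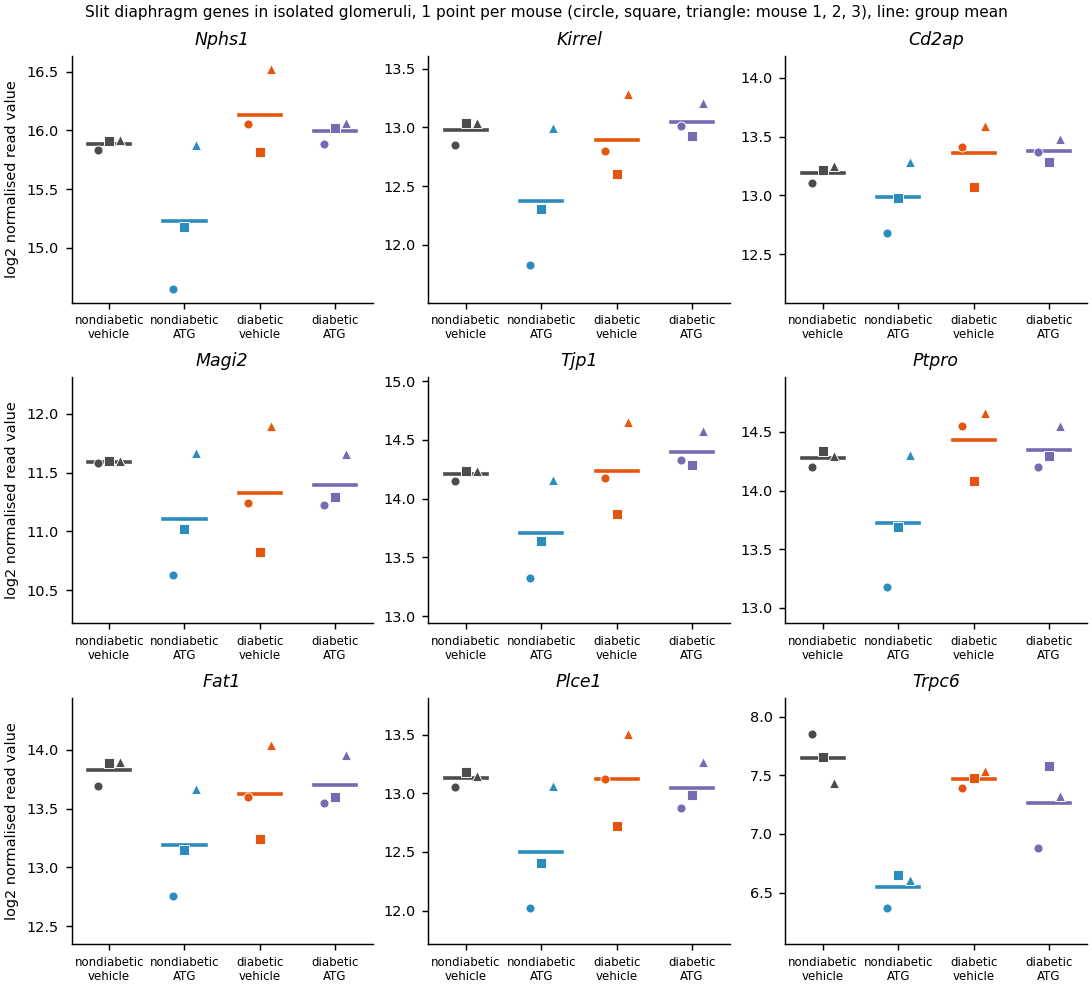
Log2 normalised read values (y axis, each panel spanning 2.1 log2 units) of the 9 slit diaphragm genes in the 4 groups (x axis), with 1 point per mouse and a line at the group mean. ATG-treated nondiabetic mouse 1 (blue circle) is the lowest point in all 9 panels, and mouse 3 of that group (blue triangle) sits with the other groups in every panel but Trpc6.

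The 4 groups held other glomerular and non-glomerular transcripts in different amounts. From nondiabetic to diabetic vehicle-treated mice, the mean log2 of 30 tubule markers went from 12.82 to 11.33, with 22 of 30 called lower, among them Keg1 (-2.35 ± 0.37, adjusted p = 0.00437), Cyp2e1 (-2.66 ± 0.45, adjusted p = 0.00578) and Slc34a1, the proximal tubule phosphate transporter (-1.76 ± 0.38, adjusted p = 0.0133). Of the tubule markers Aqp2 alone was above 0 (mean 11.72 to 12.17), without a call. Leukocyte markers were called higher in 7 of 13, led by Coro1a (1.12 ± 0.18, adjusted p = 0.00456) and Itgb2 (0.82 ± 0.15, adjusted p = 0.00686), and endothelial markers in 11 of 22, led by Fabp4 (1.12 ± 0.17, adjusted p = 0.00435) and Rasip1 (0.64 ± 0.11, adjusted p = 0.00628). Another 4 of 22 endothelial markers were below 0 without a call, among them Sox17 (mean 10.84 to 10.62) and Tek (12.84 to 12.64). None of 30 podocyte markers was called, by limma or by limma-voom, although 2 had an unadjusted p under 0.05; their mean was 13.62 in nondiabetic and 13.77 in diabetic mice. Mesangial markers gave 1 call higher, Serpine2, and 3 lower, among them Pdgfra (-1.004 ± 0.17, adjusted p = 0.00512) and Mgp. As exact two-sided permutation tests of the list means, tubule, leukocyte and endothelial markers gave p = 0.1, the smallest that 3 mice against 3 allow. The podocyte list gave an exact p of 0.5 and the mesangial list 0.2, and over the 10 such tests the lowest adjusted p was 0.333. With each library centred on the podocyte markers, 0 of 13 leukocyte, 0 of 22 endothelial and 0 of 15 mesangial markers were called and 4 of 30 tubule markers were lower, where 0.348% of all genes were called. The part of these shifts in the members' values was not tested. In whole glomeruli, fewer podocytes and less RNA per podocyte cannot be told apart.

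**Figure D2:**
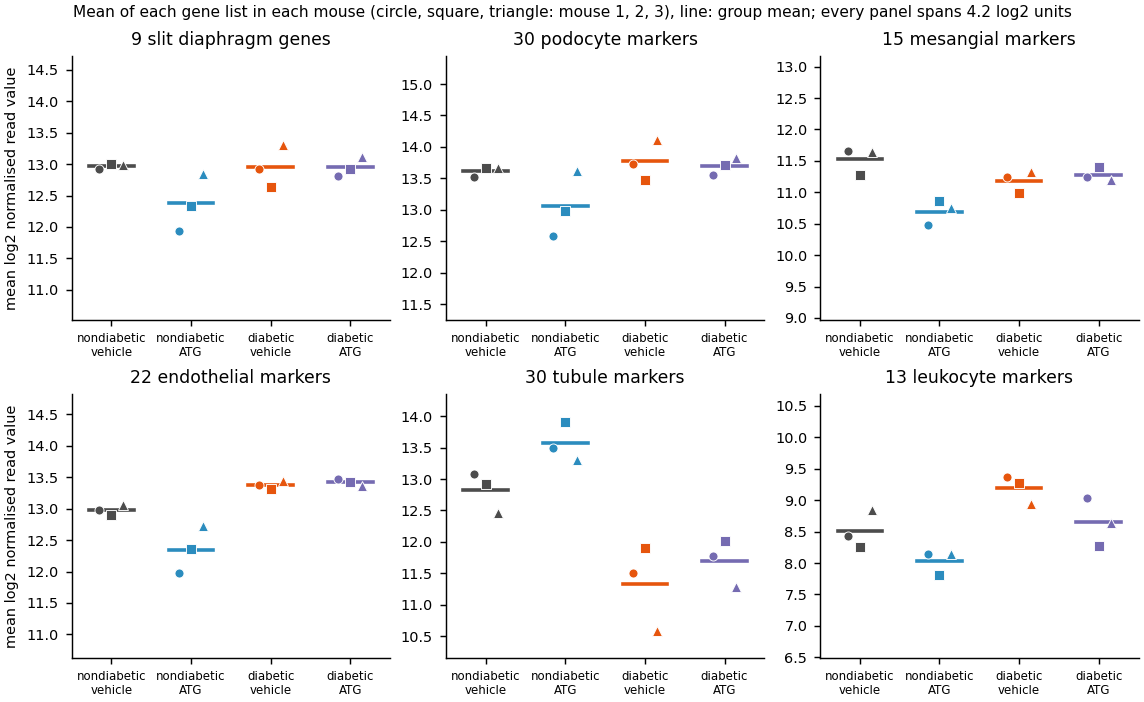
Mean log2 value (y axis, each panel spanning 4.2 log2 units) of the slit diaphragm genes and of 5 marker lists in each mouse, by group (x axis), with a line at the group mean. The slit diaphragm panel follows the podocyte panel mouse by mouse, while the tubule panel falls from 13.57 in ATG-treated nondiabetic mice to 11.69 in ATG-treated diabetic mice.

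ATG in diabetic mice, the comparison that asks whether the drug changed the diabetic glomerulus, gave no call for any member. It also gave none for any of the 14096 genes (0%), with a lowest adjusted p of 0.248, while 636 genes had an unadjusted p under 0.05. Limma-voom likewise called 0 genes, and 0 of 9 members had an unadjusted p under 0.05. The members' log2 differences ran from -0.20 (Trpc6) to 0.16 (Tjp1), with a median of 0.02 against -0.01 over all genes. Nphs1 measured 15.89, 16.02 and 16.06 in ATG-treated diabetic mice, inside the range of the vehicle-treated diabetic mice, a difference of -0.14 ± 0.27 with a 95% interval of -0.73 to 0.46. Cd2ap measured 13.37, 13.28 and 13.48 against 13.41, 13.07 and 13.59 with vehicle, and had the narrowest interval, from -0.32 to 0.36. Trpc6 measured 6.88, 7.58 and 7.33 with ATG, a difference of -0.20 ± 0.18 (interval -0.59 to 0.19). On the deposited scale no member separated the groups in this comparison, as 10.2% of all genes did. Between the same groups the mean of the leukocyte markers was 9.19 with vehicle and 8.65 with ATG, with 13 of 13 below 0 (median -0.63), 8 of them at an unadjusted p under 0.05 and none called by limma or limma-voom. The tubule mean was 11.33 with vehicle and 11.69 with ATG, with 28 of 30 markers above 0 (median 0.38) and none at an unadjusted p under 0.05 or called by either tool. The part of these values in the members' differences was not tested.

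In nondiabetic mice, the comparison that asks what ATG does without diabetes, all 9 members had lower means with ATG than with vehicle (5 of 9 with podocyte centring, described below). The log2 differences as deposited ran from -0.21 (Cd2ap) to -1.10 (Trpc6), with a median of -0.60, against -0.04 over all genes. Trpc6 fell past the threshold (adjusted p = 0.00994) and the other 8 did not (adjusted p from 0.113 for Fat1 to 0.359 for Cd2ap), so 1 of 9 was called lower, against 4.51% of all genes. An unadjusted p under 0.05 was seen for 7 of 9, against 30.2% of all genes (4263).

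Trpc6 measured 7.85, 7.66 and 7.44 with vehicle and 6.37, 6.65 and 6.61 with ATG. All 3 ATG-treated nondiabetic mice were below the 9 other mice, the lowest of which was 6.88. The share of all genes with that order is not given here. Against the vehicle-treated nondiabetic mice alone, 20.0% of all genes kept these ATG-treated mice below. The difference was -1.10 ± 0.18 (95% interval -1.49 to -0.71), a ratio of 0.466. The call was lost without vehicle-treated nondiabetic mouse 1 (-1.001, adjusted p = 0.0505, 127 of 14096 genes called). It was lost in a fit of these 2 groups alone (-1.10, adjusted p = 0.0776, where 0 genes were called and 3968 had an unadjusted p under 0.05). Leaving out the 2 nondiabetic mice whose names carry no running number also lost it (-0.92, adjusted p = 0.119, 8 genes called). So did the tubule marker mean in the model (-1.17, adjusted p = 0.0663, 44 genes called) and centring each library on the podocyte markers (-0.54, adjusted p = 0.157, 0 genes called). With all mice 736 genes were called, so the calls over all genes fell in these fits too. The direction was negative in every alternative tried.

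The other 8 members had a different shape in this group, with mice 1 and 2 lower than mouse 3. Fat1 in mouse 3, at 13.67, was still below the vehicle-treated nondiabetic mice (13.70, 13.89 and 13.90). Fat1 was thus the other member, beside Trpc6, for which these 2 groups did not overlap. Nphs1 measured 14.65 and 15.17 in ATG-treated nondiabetic mice 1 and 2 but 15.88 in mouse 3, inside the vehicle range. Kirrel measured 11.83 and 12.31 in mice 1 and 2 and 12.996 in mouse 3. Tjp1 measured 13.32 and 13.64, then 14.16, and Plce1 12.02 and 12.41, then 13.07. For 8 of 9 members mice 1 and 2 were both below the 9 mice of the other groups, Magi2 being the exception, and mouse 1 was lowest of all 12 for all 9. Mouse 1 of each nondiabetic group has a name with another leading number than mice 2 and 3 and no running number, and what these numbers mark is not stated. Without mouse 3, 7 of 9 members were called lower (Cd2ap and Magi2 were not), in a fit that called 25.0% of all genes in either direction, against 5.22% with all mice. Without mice 1 and 2, which leaves 1 ATG-treated nondiabetic mouse that is assumed to vary like the other groups, the median difference was -0.01. Trpc6 was then still at -1.04 ± 0.26.

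In the marker lists mice 1 and 2 stood apart from mouse 3 for the podocyte markers, while all 3 ATG-treated mice lay outside the vehicle range for the endothelial, mesangial, tubule and leukocyte markers. Podocyte markers averaged 12.58 and 12.97 there against 13.62 in mouse 3 and 13.52 to 13.67 with vehicle. Endothelial markers were at 11.97, 12.35 and 12.72 in the 3 ATG-treated nondiabetic mice against 12.90 to 13.06 with vehicle, and mesangial markers at 10.47, 10.86 and 10.74 against 11.27 to 11.66. The tubule mean was 13.50, 13.91 and 13.30 against 12.47 to 13.09, and the leukocyte mean 8.15, 7.81 and 8.14 against 8.25 to 8.85. Among called genes, 10 of 22 endothelial, 9 of 15 mesangial and 2 of 30 podocyte markers were lower, and no tubule or leukocyte marker was called by limma or limma-voom although 11 of 30 and 6 of 13 had an unadjusted p under 0.05. The part of these differences in the members' values was not tested.

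Diabetes within ATG-treated mice used this same nondiabetic group as its reference. All 9 members had higher means in diabetic mice (4 of 9 with podocyte centring), with a median log2 difference of 0.62 against 0.05 over all genes, and 4 of 9 were called higher, where 25.9% of all genes were. Nphs1 rose by 0.76 ± 0.27 (1.69-fold, adjusted p = 0.0392), Kirrel by 0.67 ± 0.25 (adjusted p = 0.0475), Tjp1 by 0.69 ± 0.22 (adjusted p = 0.0244) and Trpc6 by 0.72 ± 0.18 (adjusted p = 0.00748). Just past the threshold were Ptpro (0.62, adjusted p = 0.0540) and Cd2ap (0.40, adjusted p = 0.0551), followed by Plce1 (0.54, adjusted p = 0.0908), Fat1 (0.51, adjusted p = 0.0964) and Magi2 (0.29, adjusted p = 0.420). The groups did not overlap for Nphs1, Cd2ap, Tjp1 and Trpc6, a separation that 30.5% of all genes had in this direction.

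Trpc6 kept its call with each of the 12 mice left out (adjusted p from 0.00342 to 0.0311), while Tjp1 lost it in 3 of the 12 fits and Nphs1 and Kirrel in 9 each. Kirrel also lost it with median-ratio scaling (0.63, adjusted p = 0.0568) and without the trend (0.67, adjusted p = 0.0546). Without mouse 1 or mouse 2 of the ATG-treated nondiabetic group, 1 member was called, with 33.8% and 36.4% of all genes called in either direction. Without both, which again leaves 1 mouse in that group, the median difference was 0.05, while Trpc6 was at 0.65 ± 0.26. Without mouse 3, 8 of 9 were called, with 52.9% of all genes. With all mice it was 46.7% of all genes, so these counts of members moved with those over all genes. Leaving out a mouse of another group left between 1 and 6 calls. Adding the mean of the tubule markers to the model left 0 of 9 called, and 44 of all genes. Trpc6 was then at 0.89 ± 0.38 (adjusted p = 0.260) and the other 8 were below 0. ATG-treated diabetic mice had 11.28 to 12.01 on the tubule list and ATG-treated nondiabetic mice 13.30 to 13.91. Called higher in this comparison were also 21 of 22 endothelial markers (median 1.12), 12 of 30 podocyte markers (0.65), 9 of 15 mesangial markers (0.62) and 7 of 13 leukocyte markers (0.61), while 28 of 30 tubule markers were lower (-1.90). The part of these shifts in the members' values was not tested.

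**Figure D3:**
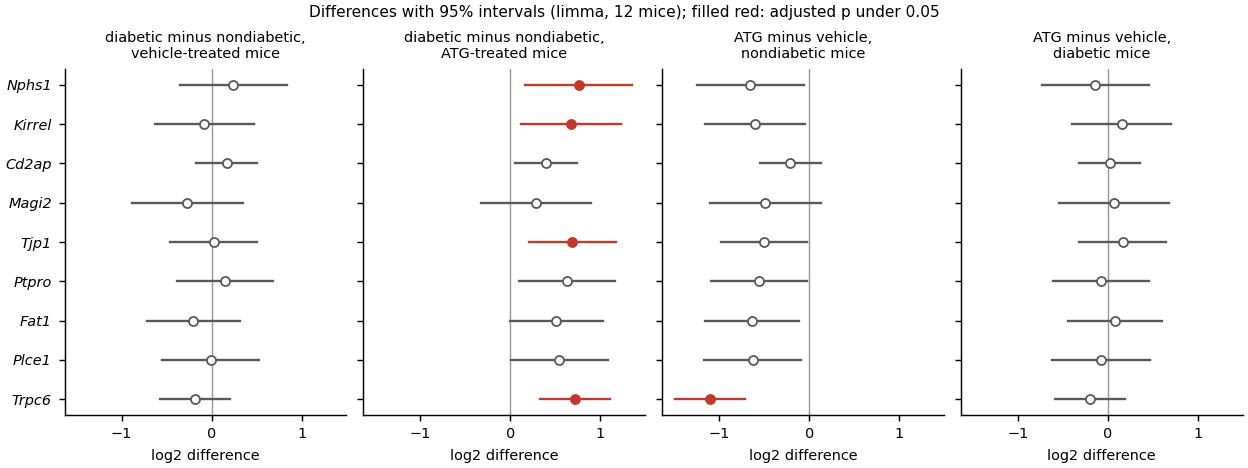
Log2 difference (x axis) with its 95% interval for each slit diaphragm gene (y axis) in the 4 comparisons between 2 groups, from 1 limma fit of 12 mice, with filled red points for an adjusted p under 0.05. On this deposited scale, without the podocyte centring that turns some signs, points lie around 0 for diabetes under vehicle and for ATG in diabetic mice, all to the right for diabetes under ATG and all to the left for ATG in nondiabetic mice; the ATG-treated nondiabetic group enters both of the latter.

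Averaged over both treatments, diabetes gave 2 calls of 9, Nphs1 (0.50 ± 0.19, adjusted p = 0.0469) and Cd2ap (0.28 ± 0.11, adjusted p = 0.04996), against 28.2% of all genes called higher. Each of these calls was lost on leaving out any of 10 of the 12 mice, with log2 differences over the 12 such fits between 0.35 and 0.66 for Nphs1 and between 0.21 and 0.36 for Cd2ap, and those fits gave between 0 and 6 calls, with 4 without vehicle-treated diabetic mouse 2 (52.9% of all genes called) and 6 without ATG-treated nondiabetic mouse 3 (56.5%), against 51.5% with all mice. Of the marker lists, 21 of 22 endothelial, 10 of 13 leukocyte, 11 of 30 podocyte and 3 of 15 mesangial markers were also called higher in this contrast, and 28 of 30 tubule and 3 of 15 mesangial markers lower. Whether ATG acted differently in diabetic and nondiabetic mice was tested as an interaction. It was positive for all 9 members (7 of 9 with podocyte centring), from 0.23 (Cd2ap) to 0.90 (Trpc6), and called for 0 of 9, against 0.546% of all genes (77). The strongest member was Trpc6 (0.90 ± 0.25, unadjusted p = 0.00414, adjusted p = 0.163). It was the single member under 0.05 unadjusted, as 12.9% of all genes were, and limma-voom called none of the members. Kirrel was called when ATG-treated nondiabetic mouse 3 was left out (1.06, adjusted p = 0.0453), in a fit that called 5.46% of all genes.

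The members were then set against the podocyte markers, by subtracting the mean log2 of the 30 markers, none of which is a member, in each mouse. For 6 of 9 members most of the span between mice went with it. Over the 12 mice the span of Nphs1 was 1.87 log2 units as deposited and 0.34 relative to the podocyte markers, that of Ptpro 1.48 and 0.27, and that of Plce1 1.48 and 0.28. Kirrel, Tjp1 and Fat1 had spans of 1.28 to 1.46 as deposited and of 0.38 to 0.46 relative to the markers. Less of the span went for Magi2 (1.27 and 0.70) and Cd2ap (0.91 and 0.62), and least for Trpc6 (1.48 and 1.33). No member was called in any comparison of 2 groups on this scale, where 49 genes (0.348%) were called for diabetes under vehicle and 33.2% for diabetes under ATG. Averaged over both treatments 8 of 9 members were below 0 on this scale, where 9 of 9 were above 0 as deposited. For diabetes under vehicle 2 of 9 had an unadjusted p under 0.05, Magi2 and Fat1, as did 1567 of the 14096 genes.

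Magi2 was the 1 member called relative to the podocyte markers, for diabetes averaged over both treatments. In that contrast 8 of 39 other slit diaphragm and nephrin signalling genes were also called lower. Of the 30 podocyte markers themselves 1 was called lower and 3 higher. Magi2 lay at -1.94, -2.07 and -2.07 in vehicle-treated nondiabetic mice and at -1.95 in each of the ATG-treated nondiabetic mice. In diabetic mice it lay at -2.49, -2.64 and -2.21 with vehicle and at -2.33, -2.42 and -2.16 with ATG. All 6 diabetic mice were thus below all 6 nondiabetic mice, the nearest being -2.16 and -2.07, and 9.87% of all genes had that order on this scale. The averaged difference was -0.39 ± 0.14 (95% interval -0.68 to -0.10, adjusted p = 0.0450), on a scale where 26.9% of all genes were called lower. Leaving out 1 mouse kept the size between -0.34 and -0.45, but the adjusted p then ranged from 0.00987 to 0.117 and was under 0.05 in 3 of 12 fits. Without the centring the averaged difference of Magi2 was 0.01 ± 0.20.

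For diabetes under vehicle 7 of 9 members were below 0 relative to the podocyte markers, none with a call. In 5 of 9 (Magi2, Fat1, Kirrel, Plce1 and Tjp1) the diabetic mice lay below the nondiabetic mice without overlap, as for 16.3% of all genes, and in Nphs1 they lay above, as for 4.14%. Fat1 lay at 0.17, 0.22 and 0.23 in vehicle-treated nondiabetic and at -0.13, -0.23 and -0.07 in vehicle-treated diabetic mice, a difference of -0.35 ± 0.16 (unadjusted p = 0.0470, adjusted p = 0.444). Kirrel lay at -0.67, -0.63 and -0.62 and then at -0.93, -0.86 and -0.82, a difference of -0.23 ± 0.17 (adjusted p = 0.722). Plce1 lay between -0.52 and -0.47 in nondiabetic and between -0.75 and -0.60 in diabetic mice, and Tjp1 between 0.57 and 0.63 and then between 0.40 and 0.54. In ATG-treated diabetic mice Kirrel lay at -0.54, -0.79 and -0.61. Kirrel (0.23 ± 0.17) and Tjp1 (0.24 ± 0.16) were thus above the vehicle-treated diabetic mice without overlap. In nondiabetic mice Cd2ap was higher (0.35) and Plce1 lower (-0.067) with ATG without overlap. None of these was called, and the share of all genes so separated is not given here. Ptpro had group means between 0.65 and 0.67, and Nphs1 between 2.18 and 2.36.

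**Figure D4:**
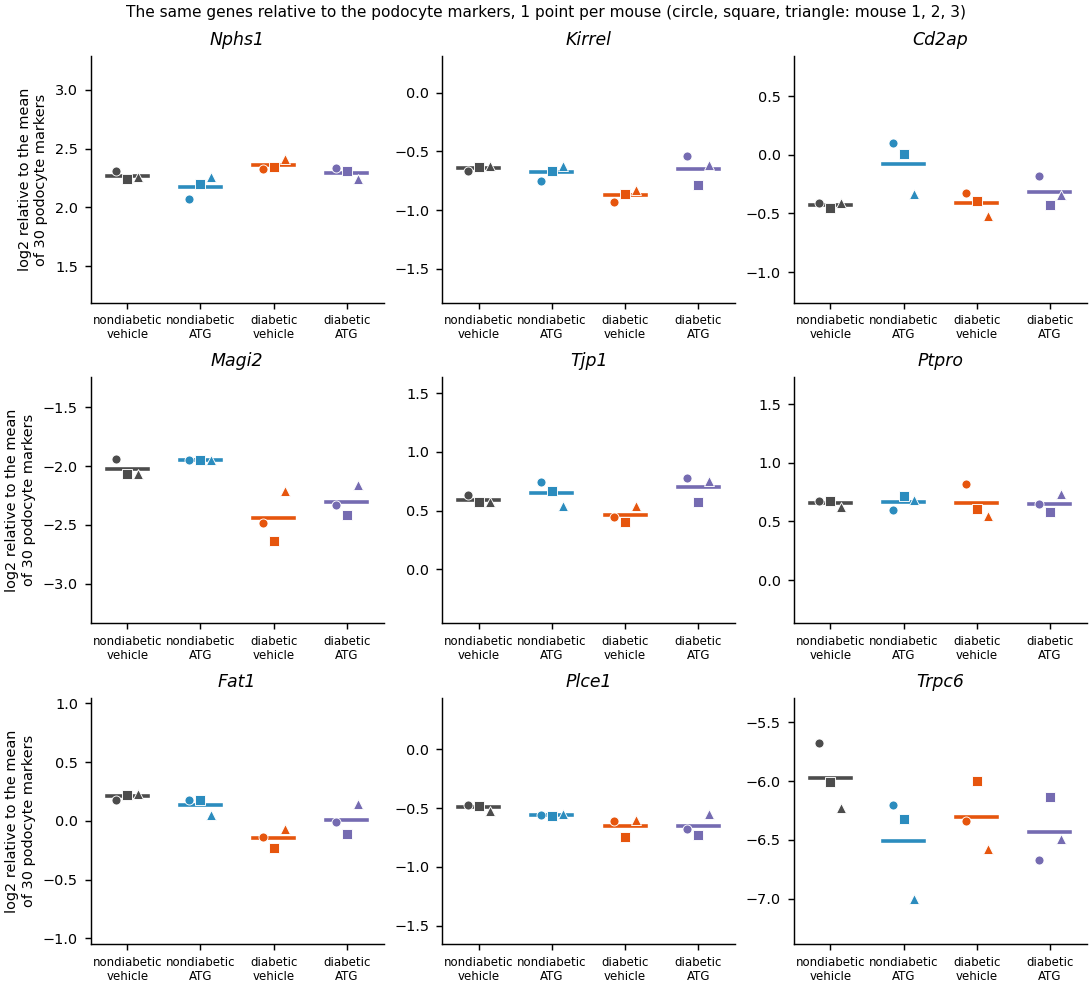
Log2 level of each slit diaphragm gene minus the mean of 30 podocyte markers (y axis, each panel spanning 2.1 log2 units) by group (x axis), with 1 point per mouse and a line at the group mean. The spread of most genes shrinks against the deposited scale, Magi2 lies between -2.64 and -2.16 in the 6 diabetic mice and between -2.07 and -1.94 in the 6 nondiabetic mice, and Trpc6 keeps a wide spread.

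Across the 12 mice, which share tissue, preparation and the group shifts above, 8 members rose and fell together. Pairwise Pearson's r among them lay between 0.765 and 0.976 (28 pairs, median 0.939), and Trpc6 had r between 0.468 and 0.699 with the 8 others. With the podocyte marker mean, r was 0.995 for Nphs1, 0.813 for Magi2 and 0.690 for Trpc6. The 5 genes outside the 9 that were most like the mean of the members were Plxdc2 (r = 0.989), Robo2, Hspa12a, Col4a5 and Clic5 (0.986). For Nphs1 the 3 most similar genes were Myom2 (r = 0.996), Loxl2 and C1qtnf1, and for Magi2 Thsd7a (r = 0.978), the podocyte antigen gene, then Phactr2 and Cep85l. Cd2ap was most like Col4a3 (r = 0.981), a basement membrane collagen gene, and Plce1 most like Robo2 (r = 0.990).

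Trpc6 resembled different genes. Its 3 most similar genes were Pik3r1 (r = 0.955), the regulatory subunit of PI3 kinase, Pdgfrb (r = 0.943), the receptor that marks mesangial cells and pericytes, and Wbscr17 (r = 0.934). With the mean of the 15 mesangial markers its r was 0.850. The mesangial mean was 11.66, 11.27 and 11.63 in vehicle-treated nondiabetic mice and 10.47, 10.86 and 10.74 in ATG-treated nondiabetic mice, the 3 mice in which Trpc6 was lowest. Pdgfrb measured 12.27, 11.92 and 12.03 in the former and 10.89, 11.03 and 11.26 in the latter. With each library centred on the mesangial markers, an alternative chosen after seeing the data, the ATG difference of Trpc6 in nondiabetic mice was -0.27 ± 0.22 (95% interval -0.74 to 0.19, adjusted p = 0.246), and its diabetes difference under ATG was 0.13 ± 0.22. On that scale 85.5% of all genes were called for ATG in nondiabetic mice and 63.5% for diabetes under ATG. Trpc6 followed these markers in the same 12 mice, so the centring by itself shrinks its difference, and a cause was not tested. Correlations over these mice are descriptions, with the 4 group means among the points.

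**Figure D5:**
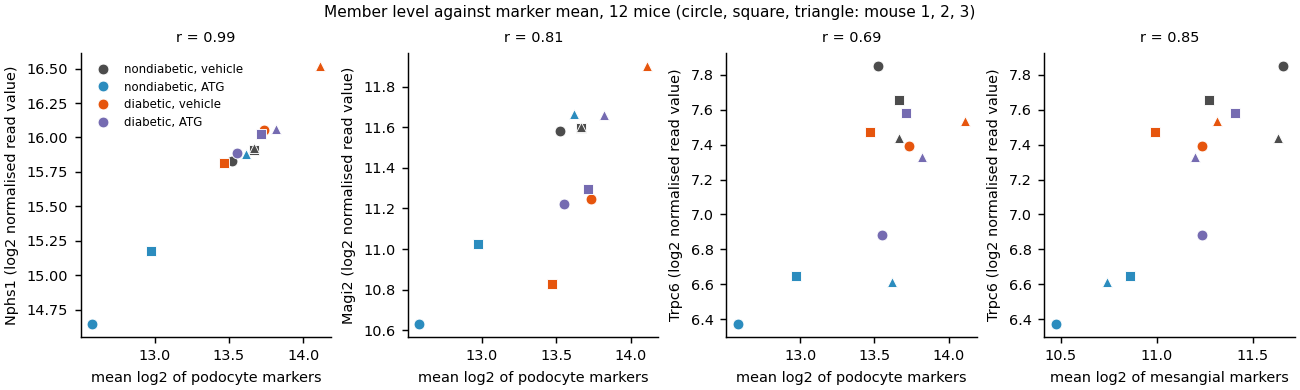
Log2 level of Nphs1, Magi2 and Trpc6 (y axes) against the mean log2 of the podocyte or the mesangial markers (x axes) in the 12 mice, coloured by group, with Pearson's r above each panel. Nphs1 lies close to a line (r = 0.99), Magi2 and Trpc6 scatter more (0.81 and 0.69), and Trpc6 follows the mesangial mean more closely (0.85).

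Among 40 further genes of the slit diaphragm and of nephrin signalling, 39 were listed, and Trpc5 was not. In vehicle-treated mice 1 of 39 was called higher in diabetes and 3 lower, where 10.2% and 8.63% of all genes were called, and the median difference was 0.05. The gene that rose was Ppp3ca, the catalytic calcineurin subunit that acts downstream of Trpc6 (11.66, 11.67 and 11.69 in nondiabetic, 11.94, 11.85 and 11.98 in diabetic mice; 0.25 ± 0.06, adjusted p = 0.0142). The 3 that fell were Pard3, the polarity protein that binds nephrin (-0.40 ± 0.10, adjusted p = 0.0182), its partner kinase Prkcz (-0.50 ± 0.13, adjusted p = 0.0292), and Kirrel3, a NEPH family gene (-0.82 ± 0.22, adjusted p = 0.0279). Pard3 measured 10.15, 10.28 and 10.20 in vehicle-treated nondiabetic mice and 9.74, 9.85 and 9.83 in vehicle-treated diabetic mice, and Prkcz measured 10.75, 10.80 and 10.62 and then 10.20, 10.47 and 10.01. In ATG-treated nondiabetic mice, where the tubule markers were highest, Prkcz measured 11.40, 11.27 and 10.93, a difference from vehicle of 0.48 ± 0.13 that was not called (adjusted p = 0.0627). With podocyte centring 0 of 39 were called for diabetes under vehicle, and Ppp3ca was at 0.096 ± 0.25 (adjusted p = 0.950). The other 3 kept their direction on that scale, Pard3 at -0.55 ± 0.29, Prkcz at -0.65 ± 0.34 and Kirrel3 at -0.97 ± 0.37. Dlg1, Arrb2, Crkl and Fyn came next by p without a call (-0.20, 0.31, 0.16 and 0.40, adjusted p from 0.0518 to 0.153).

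Kirrel2, the neighbour of Nphs1, differed by 0.06 ± 0.29 (adjusted p = 0.909) between diabetic and nondiabetic mice under vehicle and by 0.79 ± 0.29 (adjusted p = 0.0416) under ATG, a call that was lost with podocyte centring (0.15 ± 0.22, adjusted p = 0.570). In diabetic mice ATG gave 0 calls of 39, with 1 unadjusted p under 0.05 and none called by limma-voom. The genes with the lowest p there were Plcg1 (0.16) and Cask (0.11) above 0 and Pard6b and Cblb (both -0.25) below. Under ATG, diabetes gave 16 of 39 higher and 4 lower, where 25.9% and 20.8% of all genes were, with the same reference group as above. With podocyte centring it gave 0 of 39 higher and 5 lower, where 33.2% of all genes were called in either direction.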

How the data were processed

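Glomerular mRNA of 12 eNOS-/- mice was sequenced, with 3 mice in each of 4 groups named in the sample descriptions. For each mouse the authors deposited log2 values of its genes, which are reads multiplied by 1 factor per library and not divided by gene length. On the linear scale the deposited values sum to 29.7 to 30.2 M (mega), and from 83.7% to 84.4% of those under 2000 were whole multiples of 1 step per library within 0.02 reads, which was used to recover reads. Every listed gene reaches 100 on the linear scale in some library. The submitters' processing notes name mm10 and limma; aligner, counting and strand are not given in the sources used here.

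All 12 mice entered 1 limma fit of the 4 groups (version 3.58.1, R 4.3.3, prior variance with a trend), with p-values adjusted by Benjamini-Hochberg over 14096 genes and called under 0.05. Intervals are 95% intervals of that fit. The fitting step was tested on simulated data. Levels per kilobase used the transcript length in the files. The labels do not say how replicates differ beyond being separate samples, and the leading numbers in the sample names differ between groups, and within each nondiabetic group between mouse 1 and the others, so a batch that follows them and the group cannot be told apart.

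The members, gene lists and tests were chosen with earlier results of these data known. Named genes are the 9 members, Kirrel2, the first gene of each marker list, and the genes with the lowest p in each direction: from the other slit genes up to 4 for diabetes under vehicle and up to 2 for ATG in diabetic mice, from each marker list up to 2 for diabetes. The 3 genes most correlated with each member and the 5 most correlated with their mean were added. Some of the genes so chosen are given by count only, and 1 is not reported here. Alternatives were another scaling, centring on podocyte markers, a read minimum of 10, 16 added before log2, fits of 2 groups, a replicate block, a tubule covariate, no trend, limma-voom on recovered reads, and mice left out. The removal of ATG-treated nondiabetic mice 1 and 2 together and the mesangial centring were added after seeing the data.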

Additional observations from a re-analysis of the deposited data

How the results depend on the processing

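With 3 mice per group variation between mice limits the precision of every member, with read sampling adding to it for Trpc6. The counts of 0 members for diabetes under vehicle and for ATG in diabetic mice held in each alternative run. Shares of all genes called are given in brackets. For diabetes under ATG the 4 calls (46.7%) became 0 with podocyte centring (33.2%) and with the tubule covariate (0.312%). They became 1 without both unnumbered nondiabetic mice (30.6%) and 2 in the fit of 2 groups (39.2%). With single mice left out they ran from 1 to 8 (33.8% to 52.9%). For the averaged contrast the 2 calls (51.5%) became 0 with median-ratio scaling (50.4%), with the tubule covariate (0.944%) and without both unnumbered mice (40.9%). Podocyte centring left 1 (29.2%), which was Magi2 in the opposite direction while both calls were lost. Without the trend 1 was left (Nphs1, 51.0%). With single mice left out they ran from 0 to 6 (44.9% to 56.5%). For ATG in nondiabetic mice the 1 call (5.22%) became 0 with podocyte centring (0%), the tubule covariate (0.312%), the fit of 2 groups (0%) and without both unnumbered mice (0.0568%). With single mice left out it ran from 0 to 7 (0.426% to 25.0%). The interaction gave 0 calls in the alternatives for which members were counted, or 1 without ATG-treated nondiabetic mouse 3. The cause of these changes was not tested, apart from the fewer mice where some were left out.

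The running numbers in the sample names do not pair the samples. Between both diabetic groups the deviations of same-numbered mice correlated at 0.31, 0.05 and 0.34, and 2 of 3 vehicle-treated mice correlated best with their own number, a hint from the data and not from the design. A replicate block built on that number left 1375 of all genes called for diabetes under vehicle (2659 without it), and it left 1 member called for diabetes under ATG, 0 for the averaged contrast and 1 for ATG in nondiabetic mice. The block turned the sign of Nphs1 (-0.032), Cd2ap (-0.011), Tjp1 (-0.24) and Ptpro (-0.11) for diabetes under vehicle, of Magi2 (-0.047) for diabetes under ATG, and of Kirrel (-0.0093), Magi2 (-0.32), Fat1 (-0.15) and Plce1 (-0.024) for averaged diabetes.

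Of 1230 comparisons of a member's log2 difference with an alternative, 96 turned its sign, and the single one of these that was called was that of averaged Magi2 with podocyte centring. Podocyte centring turned the sign of Tjp1 (-0.13) and Ptpro (-0.00085) for diabetes under vehicle, of Cd2ap (-0.24), Magi2 (-0.35), Fat1 (-0.13), Ptpro (-0.015) and Plce1 (-0.096) for diabetes under ATG, and of Kirrel (-0.10), Cd2ap (-0.11), Magi2 (-0.39), Tjp1 (-0.040), Trpc6 (-0.13), Fat1 (-0.24), Ptpro (-0.0079) and Plce1 (-0.13) for averaged diabetes. It also turned that of Plce1 (0.00011) for ATG in diabetic mice, of Cd2ap (0.35), Magi2 (0.075), Tjp1 (0.060) and Ptpro (0.0082) for ATG in nondiabetic mice, and of Cd2ap (-0.26) and Ptpro (-0.014) for the interaction. The tubule covariate turned that of Nphs1 (-0.41), Cd2ap (-0.30), Tjp1 (-0.72) and Ptpro (-0.42) for diabetes under vehicle, of Nphs1 (-0.057), Kirrel (-0.26), Cd2ap (-0.20), Magi2 (-0.94), Tjp1 (-0.24), Fat1 (-0.50), Ptpro (-0.10) and Plce1 (-0.42) for diabetes under ATG, and of Nphs1 (-0.23), Kirrel (-0.54), Cd2ap (-0.25), Magi2 (-1.09), Tjp1 (-0.48), Fat1 (-0.75), Ptpro (-0.26) and Plce1 (-0.60) for averaged diabetes. It also turned that of Nphs1 (0.018), Ptpro (0.058) and Plce1 (0.11) for ATG in diabetic mice, and of Cd2ap (0.027) and Magi2 (1.3e-05) for ATG in nondiabetic mice. Mesangial centring turned that of Trpc6 (0.16) for diabetes under vehicle, and of Trpc6 (-0.029) for the interaction. Median-ratio scaling turned that of Magi2 (-0.021) for averaged diabetes. Leaving out both unnumbered mice turned that of Tjp1 (-0.0053) for diabetes under vehicle, and of Magi2 (-0.11) for averaged diabetes. Leaving out ATG-treated nondiabetic mice 1 and 2 turned that of Magi2 (-0.27) and Plce1 (-0.024) for diabetes under ATG, of Kirrel (-0.014), Magi2 (-0.27), Fat1 (-0.083) and Plce1 (-0.017) for averaged diabetes, and of Kirrel (0.019), Cd2ap (0.094), Magi2 (0.073) and Ptpro (0.026) for ATG in nondiabetic mice. It also turned that of Nphs1 (-0.13), Cd2ap (-0.073), Magi2 (-0.0052), Ptpro (-0.11) and Plce1 (-0.014) for the interaction. With single mice left out the sign was not stable for diabetes under vehicle in Kirrel (-0.27 to 0.066), Tjp1 (-0.19 to 0.20) and Plce1 (-0.20 to 0.19), nor for averaged Magi2 (-0.14 to 0.15). For ATG in diabetic mice it was not stable in Nphs1 (-0.30 to 0.056), Cd2ap (-0.12 to 0.14), Magi2 (-0.18 to 0.36), Tjp1 (-0.017 to 0.37), Fat1 (-0.12 to 0.28), Ptpro (-0.26 to 0.033) and Plce1 (-0.27 to 0.12). Among the marker means, single mice moved the podocyte difference from -0.016 to 0.30 for diabetes under vehicle and from -0.23 to 0.094 for ATG in diabetic mice, and the tubule difference for ATG in diabetic mice from -0.0086 to 0.65. The cause of these turns was not tested.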
